A study of Schizosaccharomyces pombe with 4 samples.

Results

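The untranslated parts of 1263 protein-coding genes of the fission yeast *Schizosaccharomyces pombe* were compared between wild-type (WT) cells and cells without *rrp6*. Each of these genes lies on a nuclear chromosome, has its coding sequence (CDS) in exactly 1 uninterrupted block, and shares no stretch of its strand with another transcript of the deposited table. The untranslated rest of a gene is its normalized read count minus that of its CDS, and the members are the genes in which this difference was at least 50 in the mean of both WT libraries. They were drawn from 2726 nuclear genes with 1 CDS block, among 5129 genes in all. Of the other genes with 1 CDS block, 756 lay below the minimum (125 of them have no rest at all) and 707 overlap another transcript on their strand. The WT level of the rest chose the members, so it is a description here, and a rest that was scarce in WT and rose could not enter.

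Total RNA was sequenced from 2 cultures of a wild-type strain and 2 of an *rrp6*Δ strain, which the labels call biological replicates 1 and 2, with ERCC spike-in RNA added before ribosomal RNA was removed. No treatment or time point separates the strains, and the labels give neither growth medium nor further alleles. The libraries held 64922620 to 82427976 reads over the transcripts of the table, of which 14842488 to 20737029 lay on members. The *rrp6* transcript had 2352 and 2842 normalized reads in WT and 7.38 and 8 in *rrp6*Δ. None of the genes on the lists of mating-type markers was a member, so the strains' mating types were not checked with those lists.

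Rrp6 is a 3′ to 5′ exonuclease of the nuclear exosome, which degrades many non-coding RNAs, trims precursors of stable RNAs and removes faulty or badly terminated messages. Untranslated regions flank the CDS of a messenger RNA. The 5′ part carries the start site and the path of the scanning ribosome, and the 3′ part carries the signals at which the RNA is cut and polyadenylated.

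The members' 5′ parts had a median length of 266 nt, their 3′ parts 314 nt and their CDS 1233 nt. Of 1262 members that were tested, 1218 have both parts, 31 only a 3′ part and 13 only a 5′ part. The deposited table counts reads for the whole gene and for the CDS, so the reads of the rest could not be divided between the 5′ and the 3′ part. All 1263 CDS opened with ATG and ended with a stop codon in the RefSeq sequence ASM294v3, in which they were looked up. The RefSeq gene models differ from the deposited ones at the ends: the start and end were the same for 26 members, and 15.3% of all nucleotides of the rest lay outside the RefSeq gene. That difference sat mainly at the 5′ end, with a median of 43 nt outside for the 5′ part and 0 nt for the 3′ part.

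The border between the 5′ part and the CDS is shown for the genes with the 2 largest rises and for one whose share fell, as 30 bases of ASM294v3 with the start codon in capitals. That of *pho1*, which encodes the secreted acid phosphatase, lies at chrII:4447542-4447571 on the plus strand, that of *mra1*, which encodes an rRNA methyltransferase, at chrI:2231398-2231427 on the minus strand, and that of *ubi4*, which encodes polyubiquitin, at chrII:1045552-1045581 on the minus strand.
pho1: ttaaggtagcgttcaATGttcttgcaaaat
mra1: gctttttcatcattcATGcctacttattcc
ubi4: cacacaatctctaccATGcagattttcgtc

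The 5′ part of *pho1* was searched for TNAAAC, the core of the sequence that the RNA-binding protein Mmi1 recognises, on the sense strand only, with overlapping matches counted. It held 4 matches, at positions −800, −786, −766 and −230 (the first base of the CDS is 0). The first 3 sit close together, and 2 of their windows are shown, from chrII:4446745-4446774 and chrII:4446779-4446808, beside the fourth from chrII:4447315-4447344, with the match in capitals.
pho1 −800: tgactgaattctTTAAACcttttgagttaa
pho1 −766: aaagctgattaaTTAAACaattatatcttg
pho1 −230: atagtcgctgctTGAAACatccggaaatag

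Of 66 member 5′ parts with 0.8 to 1.25 times the length of that of *pho1*, 56 (84.8%) held at least 1 such match and 13 (19.7%) at least 4. The letters are therefore common in windows of this length, but the count takes no account of how close together matches lie. From earlier mapping, the study places motifs for Mmi1 in a region upstream of *pho1* that holds the close matches.

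For 3 genes whose rest is mostly 3′ part, the first AATAAA after the stop codon, the letters of the canonical polyadenylation signal, is shown in capitals. It began 135 nt after the CDS in *mra1* (chrI:2230181-2230210, minus strand), 330 nt after it in *erj5* (chrI:3328127-3328156, plus strand), which encodes a J-domain protein of the endoplasmic reticulum, and 196 nt after it in *ebp2* (chrI:2014117-2014146, plus strand), which encodes an rRNA processing protein.
mra1: agagagtattagAATAAAataacaactata
erj5: tgagcatgcaatAATAAAtatttttccaac
ebp2: agccgatcacacAATAAAttctaaaaaaat

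The 3′ parts of these genes run on for 370, 1219 and 2271 nt in the table, and hold 1, 3 and 5 matches to AATAAA on the sense strand. Among member 3′ parts of 0.8 to 1.25 times the same lengths, 47% (of 300), 75.9% (of 58) and 100% (of 26) held at least 1.

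**Figure D1:**
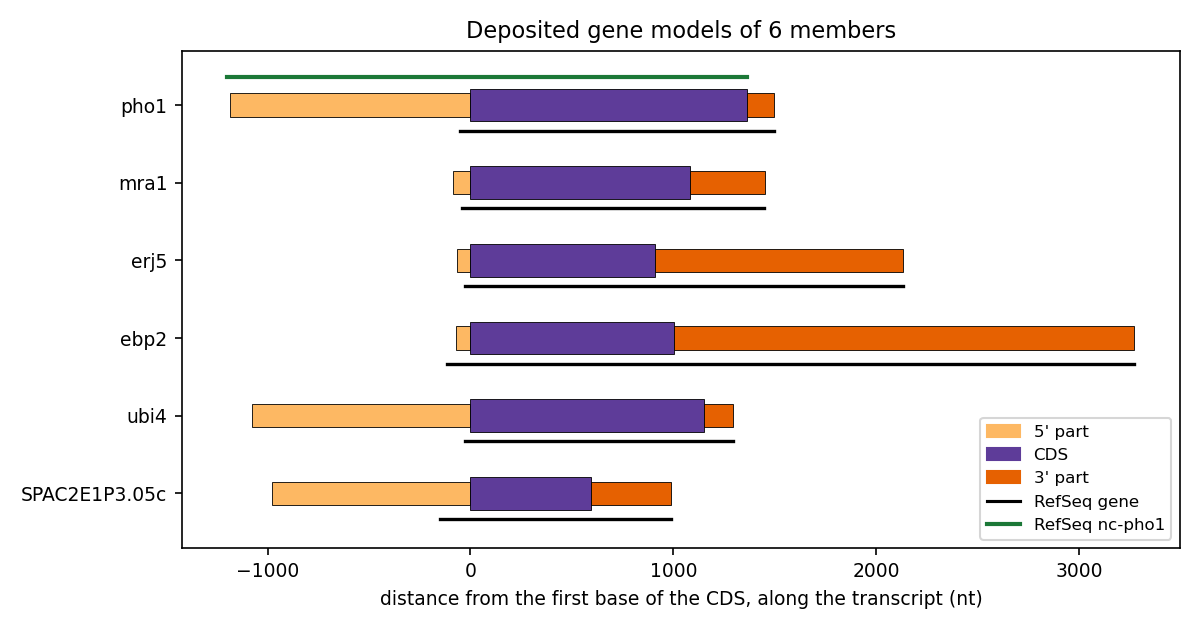
Gene models of 6 members as deposited, drawn to scale along the transcript, with the distance in nt from the first base of the CDS on the horizontal axis. Bars mark the 5′ part, the CDS and the 3′ part, the black line under each is the RefSeq gene and the green line is the RefSeq non-coding RNA nc-pho1. The long 5′ parts of pho1 (1184 nt), ubi4 (1076 nt) and SPAC2E1P3.05c (976 nt) lie mostly outside the RefSeq gene.

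The untranslated share, the percentage of a gene's reads that lie outside its CDS, was higher in *rrp6*Δ for the members as a whole. Summed over members, it was 9.32% in WT 1, 9.08% in WT 2, 10.7% in *rrp6*Δ 1 and 11.1% in *rrp6*Δ 2. The groups do not overlap, and the difference between them is larger than that within either. In such bulk RNA, the number of cells that carry an RNA and its amount per cell cannot be told apart. For each gene the log2 ratio of rest to CDS reads was compared between strains with limma, over 2350 genes with 1 CDS block in which both parts passed the filter. A ratio taken within a library does not depend on the factor by which that library was scaled. A share counted as changed when the p, adjusted by Benjamini-Hochberg over the 2350 genes, was below 0.05 and the ratio differed by over 1.5-fold.

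The share was called higher for 119 of the 1262 members tested (9.43%) and lower for 14 (1.11%), against 13.2% and 1.62% of all 2350 genes. The 2350 genes include the members, and the rule kept out genes whose rest was scarce in WT, so nothing is read from this difference. Both *rrp6*Δ libraries lay above both WT libraries for 579 members and below both for 116, where the same held for 48% and 10.9% of all genes tested. The median log2 change was 0.10 over members and 0.14 over all genes, and 938 of 1262 members had a value above 0. The 4 differences between an *rrp6*Δ and a WT library had medians of 0.067, 0.061, 0.16 and 0.15, while WT 2 minus WT 1 gave 0.0098 and *rrp6*Δ 2 minus *rrp6*Δ 1 gave 0.090. A general shift of this size runs under all calls. With each library centred on the median of all genes tested, 68 members were called higher and 27 lower, and the median over members became −0.11. When members were chosen on the mean of all 4 libraries instead of WT alone, 151 of them were called higher and 14 lower.

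The change of each part was tested by limma over 13573 features, every transcript of the table with both parts of the genes with 1 CDS block as separate features, with calls at an adjusted p below 0.05 beyond 2-fold. The rest rose for 108 members and fell for 6, and the CDS rose for 46 and fell for 13. Over all features 38.1% rose and 0.604% fell. These features include the cryptic unstable transcripts (CUTs), non-coding RNAs that the study chose for a rise in these libraries, so nothing is read from the difference in shares. The median log2 change was 0.34 for the rest and 0.21 for the CDS of members, against 0.58 over all features. These medians turned to −0.17 and −0.31 with TMM factors, −0.24 and −0.38 with DESeq2 size factors, and −0.38 and −0.07 after quantile normalization, so the direction of these medians depends on the scaling.

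Among the 119 members whose share was called higher, the rest rose and the CDS was not called in 52, and neither part passed the 2-fold rule in 64. The CDS fell without a call for the rest in *met17* and *nrf1*, and the rest rose while the CDS fell in 1, *pho1*. Among the 14 called lower, no rest passed the 2-fold rule for a fall, and the median log2 change of the rest was 0.23. The rests of SPBC1683.12 (−0.98, adjusted p = 0.00121) and *zwf2* (−0.86, adjusted p = 0.00144) fell but stayed short of 2-fold. Their CDS rose with no call for the rest in 7, both parts rose in 2, and neither passed in 5. By the same 2-fold rule no rest fell among the members called higher, and no CDS fell among those called lower.

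**Figure D2:**
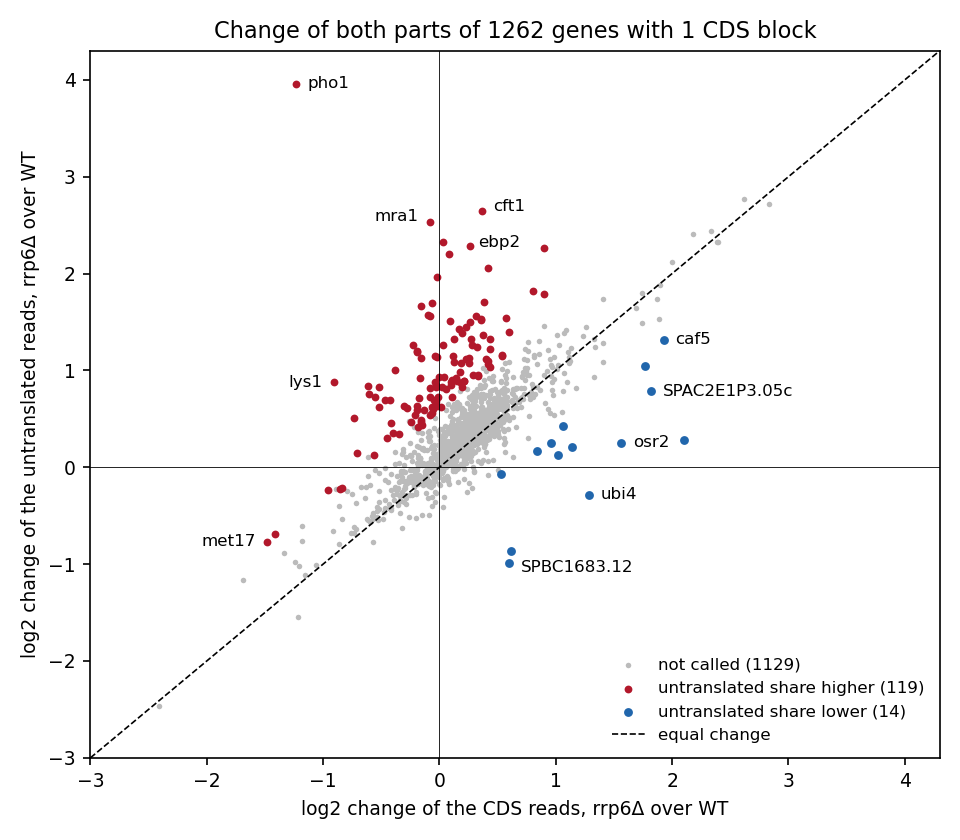
Log2 change of the CDS reads (horizontal) and of the untranslated reads (vertical), rrp6Δ over WT with the deposited scaling, for 1262 members. Each point is a gene, red where the share was called higher (119), blue where it was called lower (14) and grey elsewhere, and the dashed line marks equal change. pho1 stands far above the line with a CDS change of −1.23 and a rest change of 3.96.

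*pho1* had the highest rise of all members. The gene lies at chrII:4446373-4449053 on the plus strand, with its CDS at chrII:4447557-4448918, and its 5′ part of 1184 nt is nearly all of its rest. The rest had 262 and 293 normalized reads in WT and 3995 and 4650 in *rrp6*Δ. The CDS had 26359 and 26348 in WT and 10986 and 11455 in *rrp6*Δ. The untranslated share went from 0.983% and 1.10% to 26.7% and 28.9%. The rest rose by 3.96 on the log2 scale (adjusted p = 3.68e-13) and the CDS fell by 1.23 (adjusted p = 2.59e-09), which gave a change of the log2 ratio of 5.19 (standard error 0.09, adjusted p = 3.29e-06). In RefSeq, 1133 nt of the 5′ part lie outside *pho1* itself, and all 1184 nt lie in nc-pho1 (also called *prt*), a long non-coding RNA on the same strand at chrII:4446359-4448918 that covers the whole CDS as well. This RNA has no entry of its own among the deposited features that overlap *pho1*, so reads of the non-coding RNA and of the messenger could not be told apart over either part. The 4 matches to TNAAAC shown or named above lie in this stretch.

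The 9 next largest rises came from genes with short 5′ parts of 45 to 138 nt. Both *rrp6*Δ libraries lay above both WT libraries in each, as the choice of named genes required. *mra1* (chrI:2229963-2231496, minus strand) had 65.4 and 72.1 reads over its rest in WT and 360 and 447 in *rrp6*Δ. Its CDS stayed between 5217 and 6040 in all 4 libraries, and its share went from 1.21% and 1.18% to 6.46% and 7.50% (log2 change 2.61, standard error 0.11, adjusted p = 7.96e-05). With the deposited scaling the change of its CDS, −0.08, did not pass the test, so on that scale the gain lay outside the CDS.

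*erj5* (chrI:3326830-3329028, plus strand) had 91.9 and 88.9 reads over its rest in WT and 436 and 479 in *rrp6*Δ, with a 3′ part of 1219 nt. Its share went from 2.57% and 2.00% to 9.97% and 10.6%. *cft1* (chrII:1113294-1118228, plus strand) encodes a subunit of the cleavage and polyadenylation factor, the machine that cuts messages at their 3′ end. Its rest had 58.3 and 43.7 reads in WT and 318 and 320 in *rrp6*Δ, beside 6152 to 8407 over its CDS, and the log2 change of its share was 2.28 (standard error 0.16, adjusted p = 0.000363).

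*rfp1* encodes a subunit of a ubiquitin ligase that targets SUMO-modified proteins, and *ebp2* acts in rRNA processing. Both carry a 3′ part longer than their CDS, 1126 nt in *rfp1* and 2271 nt in *ebp2*. The rest of *rfp1* had 103 and 128 reads in WT and 532 and 529 in *rrp6*Δ. The rest of *ebp2* had 396 and 385 reads in WT and 1789 and 2024 in *rrp6*Δ. Their shares in *rrp6*Δ, 30.9% and 30.5% for *rfp1* and 22.4% and 23.7% for *ebp2*, lay above those in WT, 9.22% and 9.16% for *rfp1* and 8.03% and 5.84% for *ebp2*.

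The other 4 of the 10 largest rises had rests of 157 to 396 nt. *rpl803* encodes a protein of the large ribosomal subunit, and *caa1*, *lys1* and *his5* encode enzymes of aspartate, lysine and histidine synthesis. The rest of *rpl803* had 163 and 250 reads in WT and 790 and 788 in *rrp6*Δ beside 33956 to 36110 over its CDS. The rest of *his5* had 132 and 204 reads in WT and 505 and 559 in *rrp6*Δ. The log2 changes of the share were 1.98 in *rpl803*, 1.83 in *caa1*, 1.79 in *lys1* and 1.75 in *his5*, with adjusted p from 0.000193 to 0.00122. *lys1* differed from the others in its CDS, which had 42110 and 41694 reads in WT and 20930 and 23775 in *rrp6*Δ, a log2 change of −0.91 that is short of 2-fold. Its rest had 63.6 and 93.3 reads in WT and 135 and 149 in *rrp6*Δ.

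**Figure D3:**
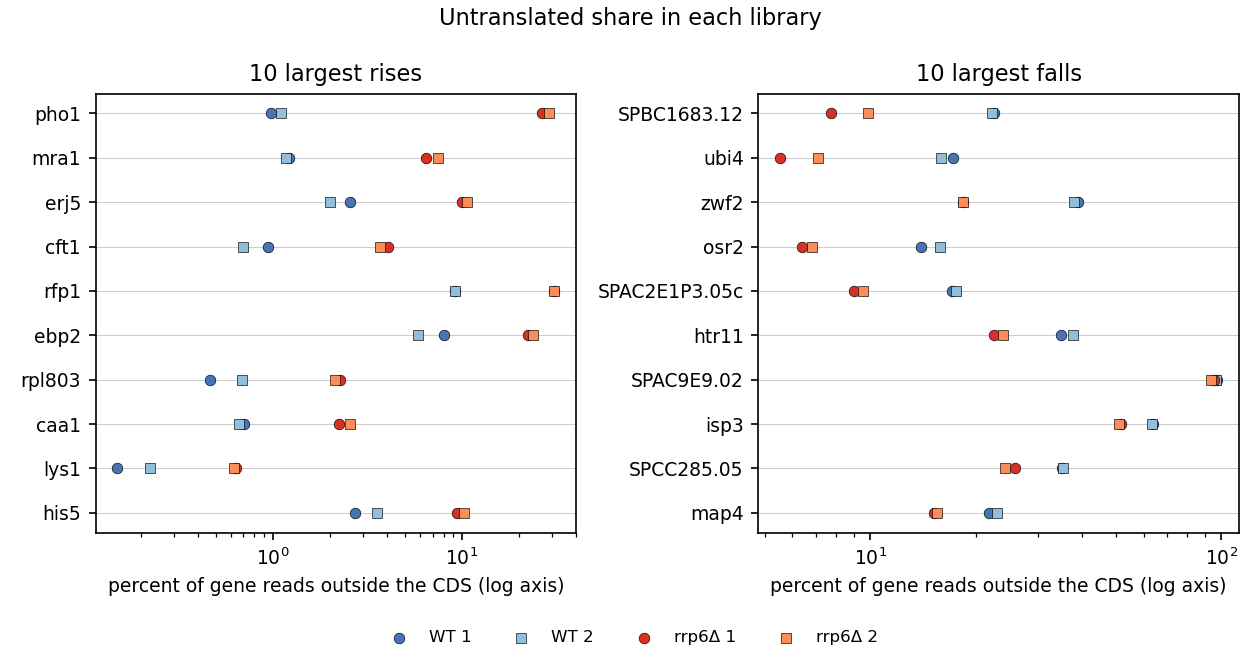
Percentage of a gene's reads outside its CDS (horizontal, log axis) in each of the 4 libraries for the 10 members with the largest rise (left) and the 10 with the largest fall (right). Circles and squares are replicates 1 and 2, blue for WT and red or orange for rrp6Δ. The genes were picked among calls whose strains do not overlap, so the lack of overlap follows from the choice. pho1 runs from 0.983% to 28.9%.

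The 10 largest falls taken by the naming rule had long 5′ parts except for *isp3*, whose 5′ part has 39 nt. SPBC1683.12, which RefSeq annotates as a nicotinic acid transporter, had 123 and 138 reads over its rest in WT and 54.1 and 79 in *rrp6*Δ, while its CDS had 423 and 480 in WT and 646 and 722 in *rrp6*Δ. Its share went from 22.5% and 22.3% to 7.73% and 9.86% (log2 change −1.58, standard error 0.19, adjusted p = 0.00263). Of its 5′ part of 1857 nt, 1832 nt lie outside the RefSeq gene.

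With the deposited scaling, *ubi4* (chrII:1044271-1046642, minus strand) changed mainly through its CDS. Another factor per library would shift the changes of both parts alike, so which part moved depends on the scaling. The CDS had 11484 and 13933 reads in WT and 33646 and 28174 in *rrp6*Δ, a rise of 1.28 on the log2 scale (adjusted p = 1.78e-08). The rest had 2390 and 2633 in WT and 1973 and 2152 in *rrp6*Δ. Its log2 change of −0.28 (limma, adjusted p = 0.0346) was short of 2-fold. The share went from 17.2% and 15.9% to 5.54% and 7.10% (log2 change −1.57, standard error 0.13, adjusted p = 0.000702). The 5′ part of *ubi4* is 1076 nt long, and 1050 nt of it lie outside the RefSeq gene.

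The same form, a CDS that rose with a rest that was not called, was found in *osr2* and SPAC2E1P3.05c. *osr2*, annotated in RefSeq as a potassium channel subunit, had 506 and 619 CDS reads in WT and 1610 and 1698 in *rrp6*Δ, with 82.2 and 117 over the rest in WT and 110 and 124 in *rrp6*Δ. SPAC2E1P3.05c, which RefSeq names *cbm1*, had 1762 and 1820 CDS reads in WT and 6248 and 6418 in *rrp6*Δ, with 362 and 387 over the rest in WT and 616 and 676 in *rrp6*Δ. Unlike that of *ubi4*, the rest of SPAC2E1P3.05c went up, by 0.78 (limma, adjusted p = 0.000126), which was short of 2-fold. The log2 changes of the share were −1.31 in *osr2* and −1.04 in SPAC2E1P3.05c. *zwf2*, named *gcd1* in RefSeq and annotated as a glucose-6-phosphate dehydrogenase, went from 39.0% and 38.1% to 18.3% and 18.3% (log2 change −1.48, adjusted p = 0.00274). Neither of its parts passed the 2-fold rule, and RefSeq gives its message 2 exons.

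The remaining falls among the 10 largest were −0.92 in *htr11*, a serine protease gene, −0.89 in SPAC9E9.02, −0.72 in *isp3*, which encodes a protein of the spore surface, −0.71 in SPCC285.05, a purine nucleoside transporter gene, and −0.67 in *map4*, which encodes an agglutination protein of mating cells. The CDS rose in *htr11* (1.14), SPAC9E9.02 (1.02) and *isp3* (1.77), and the rest rose with it only in *isp3* (1.05). *isp3* carries most of its rest in the 3′ part, 418 nt of it against 39 nt at the 5′ side. SPAC9E9.02 has few CDS reads, 32.7 and 41.5 in WT and 63.2 and 90 in *rrp6*Δ, beside 1167 to 1344 over its rest, and a RefSeq gene lies over its 3′ part on the same strand. *map4* has no 3′ part, and its share went from 21.8% and 23.0% to 15.2% and 15.5%. Without WT library 1 the calls of *isp3*, SPAC9E9.02, SPCC285.05 and *map4* ended (adjusted p from 0.0544 to 0.171), while those of the 5 larger falls and of *htr11* held.

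**Figure D4:**
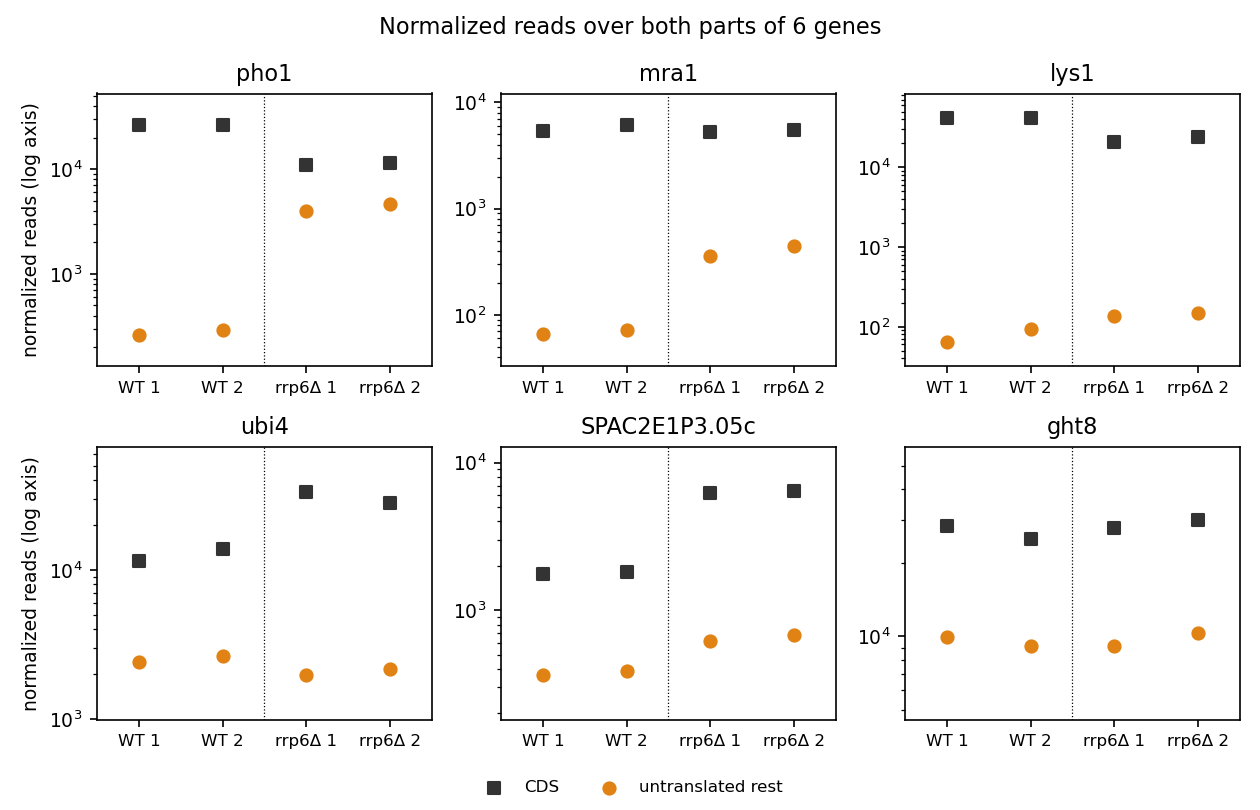
Normalized reads over the CDS (black squares) and the untranslated rest (orange circles) in each library (vertical, log axis) for 6 members, with WT left and rrp6Δ right of the dotted line. In mra1 the rest goes from 65.4 and 72.1 to 360 and 447 with a flat CDS. In ubi4 the CDS goes from 11484 and 13933 to 33646 and 28174, and the rest from 2390 and 2633 to 1973 and 2152. In ght8 neither part was called.

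Ribosomal protein genes were the list with the most members called. Of 26 members among them, the share was called higher in 14 and lower in none, with a median log2 change of 0.67 against 0.10 over all members tested. The rest rose in 6 and the CDS was called in none. These genes have very low shares: over the 14 called, the median share was 0.476% and 0.679% in WT and 1.27% and 1.67% in *rrp6*Δ. Their log2 changes ran from 0.66 to 1.98, while the 12 members not called ran from −0.16 to 0.18, so no member lay between 0.18 and 0.66. The rests of the 14 were longer, with a median of 327 nt against 190 nt for the 12. How reads across a CDS border were assigned is not given, so the level of a share over rests this short is uncertain. Per nucleotide, member rests of up to 300 nt had 0.14 times the reads of the CDS in WT in the median, against 0.28 over all members tested.

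Beside *rpl803*, the ribosomal protein genes with the smallest adjusted p were *rps2202*, *rpl13* and *rpl6*. *rps2202* had 1077 and 1209 reads over its rest in WT and 1906 and 1963 in *rrp6*Δ, and its CDS had 9934 and 12512 in WT and 7445 and 7214 in *rrp6*Δ. Its share went from 9.78% and 8.81% to 20.4% and 21.4% (log2 change 1.37, adjusted p = 0.000247), and RefSeq gives its message 2 exons. *rpl13* had 194 and 240 reads over its rest in WT and 487 and 500 in *rrp6*Δ, and *rpl6* had 1153 and 1205 in WT and 1893 and 1993 in *rrp6*Δ. Most of these proteins are encoded by pairs of nearly identical genes, and whether the deposited counts hold only reads with a single place in the genome, as the study states for one plot of read density in these strains, was not analysed here. The untranslated parts differ more between copies than the CDS do, so the ratio of a copied gene is uncertain.

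In RNA decay and processing, 3 of 7 members were called higher and none lower. Beside *cft1* these were *csl4*, which encodes a cap subunit of the exosome itself, and *dhp1*, which encodes the nuclear 5′ to 3′ exonuclease. *csl4* has only a 3′ part (408 nt), with 151 and 208 reads in WT and 468 and 541 in *rrp6*Δ, and its share went from 6.12% and 6.83% to 13.4% and 14.6% (log2 change 1.23, adjusted p = 0.00087). *dhp1* has a 3′ part of 1773 nt, with a rest of 176 and 221 reads in WT and 377 and 360 in *rrp6*Δ (log2 change of the share 0.79, adjusted p = 0.0109). The members *rrp4*, *rrp40*, *ski3* and *upf1* were not called.

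Other lists had few calls. Of 10 translation factor genes 1 was called higher, *tif33*, a subunit of initiation factor eIF3, with shares of 0.237% and 0.197% in WT and 0.361% and 0.448% in *rrp6*Δ (log2 change 0.90). Of 23 *mug* genes, which were named for their induction in meiosis, *mug35* was called higher (0.89), and its CDS (−0.28) and rest (0.62) both missed the 2-fold rule. Of 5 genes on the phosphate list *pho1* alone was called, and SPBC1683.01, given below, is not on that list. Among 18 stress response genes *sod1*, which encodes superoxide dismutase, was called higher (0.60) and *caf5*, a plasma membrane transporter gene, lower (−0.61). Of 11 cell cycle genes *cdc10*, a subunit of the MBF transcription factor, was called higher (0.61), and of 6 genes of sulfur assimilation *met17*, which encodes homocysteine synthase (0.71).

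Both parts of *caf5* rose, the CDS by 1.93 and the rest by 1.31, and both parts of *met17* had negative changes, −1.48 for the CDS, which fell, and −0.77 for the rest, which was not called. Among 12 genes of chromatin silencing *chp1*, which encodes a chromodomain protein of the RITS complex, was called lower (−0.60), with shares of 20.2% and 19.6% in WT and 15.1% and 13.1% in *rrp6*Δ. The calls of *sod1*, *caf5*, *cdc10*, *met17* and *chp1* ended without WT library 1, with adjusted p from 0.0692 to 0.174. No member was called on the lists of 17 transporter genes, 15 genes of cell wall and septum and 11 of glycolysis. The same held for 10 genes of sexual differentiation, 8 histone genes and 2 *meu* genes. The transporter list leaves out SPBC1683.12, SPCC285.05 and *caf5*, which were called lower as given above. It also leaves out SPBC27B12.09c, a FAD transporter gene called higher, and SPBC1683.01, given below. Histone genes, whose messages are short, had a median share of 28.3% in WT and 28.1% in *rrp6*Δ. The list of Mmi1 targets had no member, since none of its 8 genes with 1 CDS block met the rule.

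**Figure D5:**
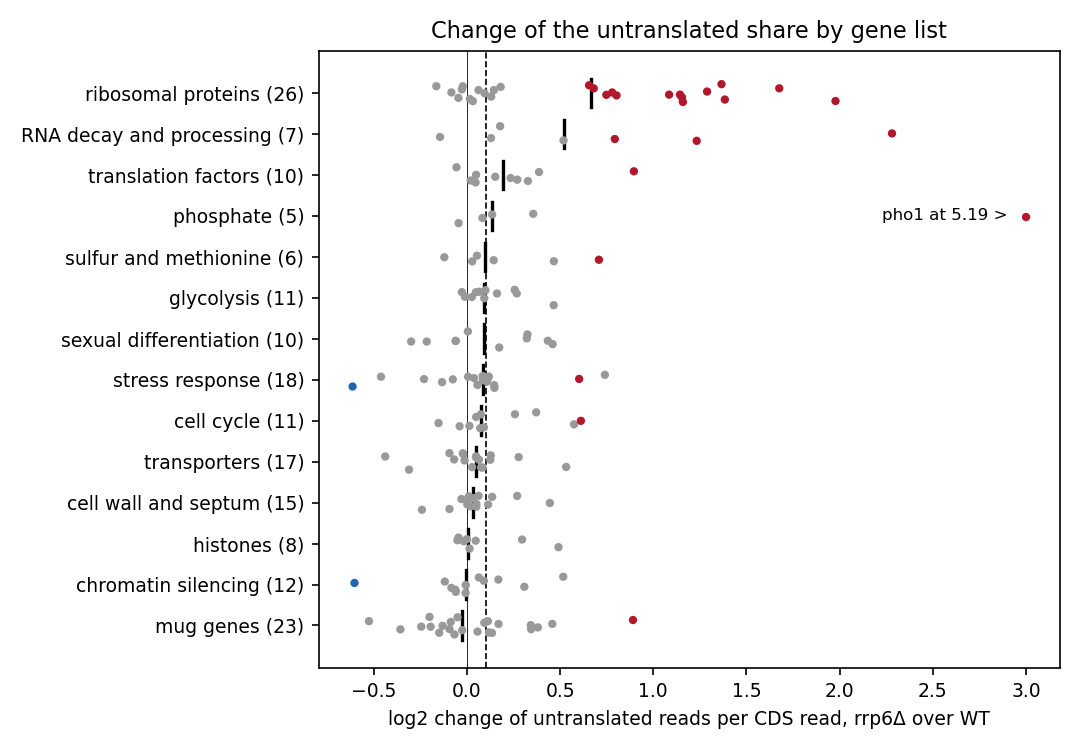
Log2 change of untranslated reads per CDS read, rrp6Δ over WT, for the members of each gene list with at least 5 of them (number in brackets). Points are genes, red where the share was called higher, blue where called lower and grey elsewhere, the thick bar is the list's median and the dashed line the median of all members (0.10). Ribosomal proteins fall into a group from 0.66 to 1.98 and a group from −0.16 to 0.18, and pho1, at 5.19, is drawn at the edge.

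A list of 15 members that the study names for other reasons was followed, and of these *pho1* was the sole call. The list misses SPAC2E1P3.05c, which was called lower as given above, and *ctr4*, which encodes a copper transporter subunit and was not called (log2 change 0.05, adjusted p = 0.754), although the study names both. *adh1*, which encodes alcohol dehydrogenase, had 318876 and 305966 CDS reads in WT and 225993 and 242921 in *rrp6*Δ. Its rest had 116372 and 108152 in WT and 81832 and 83362 in *rrp6*Δ, so that its share stayed between 25.5% and 26.7% in all 4 libraries. The hexose transporter gene *ght8* has a 5′ part of 2146 nt, of which 1701 nt lie outside the RefSeq gene, and its share lay between 24.7% and 26.7%. The log2 changes of the share were −0.44 in *ght1* (standard error 0.20), −0.09 in *ght8* (0.06) and 0.13 in *ght5* (0.13).

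The methyltransferase genes *clr4*, *set1* and *set2*, the deacetylase gene *clr3*, its partner *clr2*, the HP1 gene *swi6* and the Dicer gene *dcr1* had log2 changes of the share between −0.06 and 0.17, with adjusted p from 0.395 to 0.984. *clr4* stands out among them by its level: its 3′ part of 2579 nt is longer than its CDS, and 62.5% to 64.8% of its reads lay outside the CDS. *mug147* rose over both parts, by 1.53 over the rest (from 110 and 103 reads to 313 and 305) and by 1.89 over the CDS (from 228 and 239 to 823 and 915), and its share (−0.36, adjusted p = 0.198) was not called. In SPCC1235.17 the CDS rose by 1.18 and its share (−0.36) was not called. SPCC1235.18 had 352 and 327 reads over its rest in WT and 333 and 313 in *rrp6*Δ with at most 1 read over its CDS, and was the 1 member that could not be tested.

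Members whose share was called higher began from thin rests. Per nucleotide, the rest had 0.088 times the reads of the CDS in WT in the median of the 119, and 0.20 times in *rrp6*Δ. The corresponding values were 0.30 and 0.32 over the 1129 members not called, and 0.71 and 0.38 over the 14 called lower. Median lengths differed as well: the 5′ part measured 140 nt in members called higher, 284 nt in those not called and 798 nt in those called lower, while the 3′ part measured 370, 308 and 232 nt. These WT levels belong to the compared values, so they describe the groups and test nothing.

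The side of the rest went with the calls. Where the 3′ part made up at least 80% of the rest, 51 of 267 members (19.1%) were called higher and 2 lower. Where the 5′ part made up at least 80%, 7 of 127 (5.51%) were called higher and 6 lower, and of the other 868 members 61 (7.03%) were called higher and 6 lower. Of the 31 members with a 3′ part alone 4 were called higher, and of the 13 with a 5′ part alone none was and 2 were called lower. By the mean share of all 4 libraries, calls of higher shares made up 22.6% of 62 members under 1%, 18.4% of 179 from 1% to 5%, 8.13% of 627 from 5% to 20%, 5.52% of 344 from 20% to 50% and 4% of 50 above.

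Sequence features were counted per group as a description, with no test. ATG on the sense strand occurred 12.3 times per kb of 5′ part in members called higher, 16.6 in those called lower and 7.59 over all tested members. These densities pool all 5′ parts of a group, so long ones weigh most. By gene, at least 1 ATG was present in the 5′ part of 56.3%, 85.7% and 62.0% of the same groups. TNAAAC on the sense strand occurred 2.20 times per kb of rest in members called higher, 2.20 in those called lower and 1.92 in those not called, and the CDS of tested members held 1.54 per kb. AATAAA was present in the 3′ part of 61.3% of members called higher, 21.4% of those called lower and 44.5% of those not called, but its density per kb of 3′ part was 1.55 and 1.07 in the groups called higher and lower and 1.54 over all tested members. The GC content of the rest had medians of 32.2%, 32.7% and 31.3% in members called higher, called lower and not called.

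Neighbouring CUTs, the non-coding RNAs that accumulate without Rrp6 and that the study defined in these libraries, were counted around members. The rule had removed genes that overlap a transcript on their own strand, so counts on that strand describe the members only. A CUT on the same strand began or ended within 200 nt upstream of 47 members, of which 2 were called higher, and within 200 nt downstream of 30, of which 3 were. A CUT on the opposite strand overlapped the 5′ part in 20 of 119 members called higher (16.8%), 6 of 14 called lower (42.9%) and 194 of 1129 not called (17.2%). At least 50% of the rest lay outside the RefSeq gene in 9 of the 119, 7 of the 14 and 68 of the 1129. Among the 1015 members whose 5′ and 3′ parts each reach less than 200 nt beyond the RefSeq gene, whose RefSeq message is not split into exons and whose rest overlaps no other RefSeq gene on the same strand, 98 were called higher and 3 lower.

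At the threshold of the rule, *pdi2* and *yhb1* lay just inside and *mcm4* and *meu18* just outside. The rest had 38 and 62.7 reads in WT and 79.6 and 91 in *rrp6*Δ in *pdi2*, and 51.3 and 48.8 in WT and 112 and 132 in *rrp6*Δ in *yhb1*. It had 48.6 and 50.3 in WT and 41 and 56 in *rrp6*Δ in *mcm4*, and 42.4 and 57.6 in WT and 47.6 and 60 in *rrp6*Δ in *meu18*. The share of *yhb1* was called higher (log2 change 0.99, limma, adjusted p = 0.0142), and those of *pdi2*, *mcm4* and *meu18* were not called. With the minimum at 200 instead of 50, 800 members remained, of which 55 were called higher and 7 lower.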

How the data were processed

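Total RNA of 2 WT and 2 *rrp6*Δ libraries was analysed from 1 table that the authors deposited. Per the labels, ERCC RNA was added, rRNA was removed and stranded libraries were read in pairs. Reads were mapped with TopHat (submitters' processing notes). The signal values that the authors deposited are normalized read counts and densities (count per nt), scaled on the ERCC signal by the methods. 100% of the counts were whole reads times 1 factor per library (0.884, 0.729, 0.820 and 1). The methods name HTSeq for RNA-seq in general without saying that it covers these libraries, and how reads across a CDS border were assigned is not given in the sources used here. Of 21852 entries, 28 duplicates were left out.

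limma 3.58.1 (R 4.3.3) with a trend was fitted to log2(value + 0.729), 0.729 being the smallest value above 0, after filterByExpr of edgeR 4.0.16 on whole reads (minimum count 10). Fold changes are on this scale. DESeq2 1.42.0 gave alternative size factors, and the quasi-likelihood test of edgeR an alternative test. Summaries and plots were made in Python 3.11.15 with pandas 2.3.3 and matplotlib 3.10.9. Sequences and second gene models are RefSeq ASM294v3, to which all 1263 members matched by locus tag. The fit was tested on simulated counts for the comparison of shares in 2350 genes. It called 50 of 50 shares raised 4-fold, 49 of 50 raised 2.5-fold and 18 of 50 raised 1.5-fold. It also called 44 of 50 reduced to 0.4 of their value and 10 of 2150 left as they were. These simulated counts held no general shift of the ratio between libraries, unlike the data. The 10 of 2150 thus do not give the rate of false calls here.

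The members and the gene lists were chosen with earlier results of these data known. Named members were the 10 largest rises and 10 largest falls among calls with strains that do not overlap and a mean CDS value of at least 50, members on a list of genes that the study names, up to 3 called members per list by adjusted p, and the pairs of genes on either side of the threshold. *nrf1*, *rrp4*, *rrp40*, *ski3*, *upf1* and *ctr4*, and the genes of the closing observations, were named after their values were seen. Over member rests, replicates lay further apart than counting error (chi-square over degrees of freedom 7.36 in WT and 4.34 in *rrp6*Δ), so each was counted as a library of its own. With 2 libraries per strain an exact permutation test of a single value cannot reach a p of 0.05.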

Additional observations from a re-analysis of the deposited data

How the results depend on the processing

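The number of members called moved with several settings and stayed near the main result with others. Centring each library on its median gave 68 higher and 27 lower and a median change of −0.11, in place of 119, 14 and 0.10. Centring lowers the change of every gene by the same amount. The rises of *sod1* (0.60), *cdc10* (0.61) and *met17* (0.71) then fall short of 1.5-fold. The same holds for the smallest rise called among ribosomal protein genes (0.66), and that of *dhp1* (0.79) comes close to the limit. More than 2-fold gave 44 and 6, a minimum of 200 gave 55 and 7, and the members whose rest RefSeq holds but for under 200 nt per side, with no split message and no other gene on that strand, an alternative chosen after seeing the data, gave 98 and 3. Leaving out 1 library gave 101 to 143 higher, 8 to 13 lower and a median of 0.063 to 0.15. Lower calls were 8 without WT 1 and 9 without WT 2. The edgeR test gave 126 and 14, and other filters, pseudocounts, trend and fits gave 111 to 124 higher and 12 to 14 lower. Among named members, the 10 largest rises and the falls of SPBC1683.12, *ubi4*, *zwf2*, *osr2*, SPAC2E1P3.05c and *htr11* kept their calls without any 1 library. Besides the calls lost without WT 1, those of *chp1*, SPAC9E9.02, *map4*, *cdc10* and SPCC285.05 ended without WT 2 (adjusted p from 0.0688 to 0.162), those of *map4*, *cdc10* and *caf5* without *rrp6*Δ 1 (0.0639 to 0.127), and those of *chp1*, SPAC9E9.02, *map4*, *caf5* and SPCC285.05 (0.0525 to 0.140) without *rrp6*Δ 2, where *sod1* and *met17* fell short of 1.5-fold. A replicate block gave 123 and 13 and ended the call of *map4* (adjusted p = 0.0599). Same-numbered libraries had deviations with a correlation of 0.26 over members and 0.018 over all features, and the labels do not say that a number marks a shared batch. For the parts, TMM factors gave 34 rests that rose and 35 that fell, and 18 CDS that rose and 61 that fell. DESeq2 size factors gave 26, 44, 17 and 74, and quantile normalization 25, 185, 22 and 36, in place of 108, 6, 46 and 13. Leaving out 1 library gave 89 to 139, 4 to 9, 39 to 55 and 12 to 16. The cause of these differences was not tested.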

Other observations

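Other members called higher were picked after their values were seen, and no list of them was tested. *arg11*, which encodes an enzyme of arginine synthesis, had a log2 change of the untranslated share of 1.64, and SPCC11E10.01, annotated as a cystathionine beta-lyase gene, had 1.39. *wrs1*, which encodes the tryptophan tRNA ligase, had 1.39 and *ala1*, which encodes the alanine tRNA ligase, had 1.45.

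A second phosphate gene, SPBC1683.01, which RefSeq names as an inorganic phosphate transporter gene, also carries a long 5′ part (1950 nt) and had a log2 change of 1.35. *tsc1*, which encodes the hamartin subunit of a regulator of TOR signalling, has a 3′ part of 1555 nt and had 1.64. The lowest value of all members, −1.83, came from SPAC7D4.08, which has few CDS reads and a RefSeq gene over its 3′ part on the same strand.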
